A study of Mus musculus with 9 samples.

Results

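NF-kappaB genes were followed across 3 groups of activated mouse T cells that differ in CD69: 3 subunit genes of the transcription factor (Nfkb2, Relb and Rel), the inhibitor genes Nfkbia and Nfkbie, the nuclear inhibitor-like genes Nfkbid, Nfkbiz and Bcl3, and Tnfaip3, which encodes the ubiquitin-editing enzyme A20. The list held 10 genes, of which 9 were found by their single gene symbol among the 19938 genes measured. Nfkb1, the tenth, is not analysed here. Each of the 9 genes had 1 probe set.

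NF-kappaB proteins form dimers that wait in the cytoplasm, bound by inhibitors of the IkB family. Signals from the T cell receptor and from CD28 reach the IKK kinases through protein kinase C theta and adaptor proteins, and the inhibitors are then degraded so that the dimers enter the nucleus. Among the genes these dimers switch on are their own inhibitors and A20, so the pathway is known for its feedback. In the slower, non-canonical route, which starts from receptors of the TNF receptor family, the Nfkb2 product is cut to a shorter form that pairs with RelB. c-Rel, the product of Rel, is the subunit best known from lymphocytes, where it takes part in Il2 expression.

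The CD69-activated group consisted of wild-type cells that received an anti-CD69 antibody after 24 h and a cross-linking secondary antibody after 48 h, each diluted 1 in 200. The CD69-/- group came from CD69-deficient C57BL/6J mice, and the wild-type group from C57BL/6J mice. All cells were enriched for CD4 T cells from spleen and kept for 72 h with beads coated with anti-CD3 and anti-CD28, at 10 cells per bead, so even the wild-type cells were stimulated through the receptors that drive NF-kappaB. The design asks what the loss and the ligation of CD69, an early activation marker of lymphocytes, do to gene expression. The labels describe no control culture with isotype antibody or with the secondary antibody by itself. They name the 3 samples of a group biological replicates without tying them to mice, and the p-values therefore rest on the spread among samples that may be technical.

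Values are log2 RMA levels, with array medians between 7.40 and 7.56, and their precision is limited by the small number of arrays. Cd69 had levels of 11.80, 11.84 and 11.74 in CD69-activated cells, 9.65, 9.49 and 9.63 in CD69-/- cells, and 12.03, 12.12 and 12.37 in wild-type cells. Xist, an RNA of female cells, averaged 12.95 in CD69-activated, 6.01 in CD69-/- and 12.59 in wild-type arrays, and the Y-linked gene Uty averaged 5.05 in CD69-activated, 9.54 in CD69-/- and 5.06 in wild-type arrays. The CD69-/- arrays thus had a male pattern and the other 6 arrays a female one, and genotype and sex cannot be told apart in any comparison with CD69-/- cells. Cd4 lay between 12.02 and 12.09 in CD69-activated arrays, between 12.31 and 12.39 in CD69-/- arrays and between 11.92 and 12.02 in wild-type arrays. The B cell gene Cd79a was also bright, at 12.67 to 13.25 over all 9 arrays, as was the CD8 gene Cd8b1, at 12.05 to 12.85. In such bulk samples fewer cells of a type and less RNA per cell cannot be told apart.

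The promoters of these genes are shown because autoregulation through kappaB sites is the textbook property that joins them. RefSeq promoter windows (GRCm38.p6, 250 bases before to 50 after each start) were used for 7 of the 9 genes, namely Nfkb2, Rel, Nfkbia, Nfkbie, Nfkbid, Tnfaip3 and Bcl3; Relb and Nfkbiz are named only. The consensus kappaB motif of 10 bases was searched on both strands. All 7 genes held at least 1 match, in 9 of their 12 windows, while 5.75% of the 15614 measured genes with a window (897 genes) and 4.95% of their 19177 windows held one. A match describes letters and not a bound site.

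Nfkb2 is shown with the whole stretch of 250 bases before its first start, chr19:46304487-46304736 on the plus strand, written 5′ to 3′ with the matches in capitals. A palindromic match that overlaps a second one begins 39 bases before the start and another match begins 11 bases before it.
Nfkb2: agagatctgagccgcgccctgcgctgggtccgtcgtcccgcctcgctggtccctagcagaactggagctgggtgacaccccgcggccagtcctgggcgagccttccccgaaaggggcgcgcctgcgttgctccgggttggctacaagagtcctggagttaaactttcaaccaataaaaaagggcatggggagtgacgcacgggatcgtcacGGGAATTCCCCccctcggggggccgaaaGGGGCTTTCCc

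The other genes are given as the bases around 1 match each, in capitals, on the strand of the gene. The stretches lie at chr12:55492652-55492691 for Nfkbia (minus strand), chr11:23771037-23771076 for Rel (minus strand), chr17:45555579-45555618 for Nfkbie (plus strand), chr7:30422210-30422249 for Nfkbid (plus strand, before its second start) and chr10:19015411-19015437 for Tnfaip3 (minus strand, before its first start). The matches begin 29 bases before the start in Nfkbia, 92 in Rel, 106 in Nfkbie, 181 in Nfkbid and 12 in Tnfaip3.
Nfkbia: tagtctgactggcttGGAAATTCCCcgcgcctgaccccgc
Rel: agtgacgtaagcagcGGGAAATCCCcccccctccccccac
Nfkbie: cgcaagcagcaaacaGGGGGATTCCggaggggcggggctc
Nfkbid: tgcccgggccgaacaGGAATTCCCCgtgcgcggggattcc
Tnfaip3: actggaatttccatcGGAAATCCCCct
In Bcl3 the match, at chr7:19822744-19822753 on the minus strand, lay after the start and read GGGAAGTCCC.

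Among the subunits Nfkb2 differed between all groups. Its levels were 10.72, 10.70 and 10.78 in CD69-activated cells, 11.39, 11.25 and 11.30 in CD69-/- cells, and 11.15, 11.11 and 11.10 in wild-type cells. No array of 1 group overlapped another group, with the CD69-activated arrays lowest and the CD69-/- arrays highest. In limma's fit over all 19938 genes (two-sided, Benjamini-Hochberg adjusted over all genes, called under 0.05), Nfkb2 fell 1.31-fold in CD69-activated cells against wild type (-0.39 on the log2 scale, SE 0.043, n = 3 per group, adjusted p = 9.38e-05). It rose 1.14-fold in CD69-/- cells against wild type (0.19, adjusted p = 0.0107). The direct difference, CD69-activated minus CD69-/-, was -0.58 (95% interval -0.68 to -0.49, adjusted p = 1.77e-06). These differences lay at the 3.25th, 93.5th and 2.68th percentile of the log2 fold changes of all genes.

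Relb, whose product pairs with the processed Nfkb2 product, had 9.52, 9.52 and 9.61 in CD69-activated cells, 9.79, 9.74 and 9.80 in CD69-/- cells, and 9.59, 9.63 and 9.62 in wild-type cells. The CD69-/- arrays stood above all others, and the CD69-activated and wild-type arrays overlapped. Relb rose in CD69-/- cells (0.17, SE 0.038, adjusted p = 0.0134). That call was lost without wild-type replicate 1 (adjusted p = 0.0524), CD69-/- replicate 1 (0.0533) or CD69-/- replicate 3 (0.0520). In CD69-activated cells Relb was at -0.062 against wild type (95% interval -0.15 to 0.023, adjusted p = 0.282), and with arrays centred on their medians it fell by 0.14 (adjusted p = 0.0304).

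Rel moved the other way from Nfkb2 and Relb. It had 12.50, 12.55 and 12.49 in CD69-activated cells, 12.19, 12.29 and 12.27 in CD69-/- cells, and 12.38, 12.47 and 12.44 in wild-type cells. Here the CD69-/- arrays lay below all others and the CD69-activated arrays above all others. Rel fell 1.13-fold in CD69-/- cells (-0.18, SE 0.042, adjusted p = 0.0144), a call that was lost without wild-type replicate 2 (0.0632), wild-type replicate 3 (0.0521) or CD69-/- replicate 1 (0.0645). Against wild type its difference in CD69-activated cells, 0.084, did not pass (adjusted p = 0.177). The direct difference between CD69-activated and CD69-/- cells was 0.26 (SE 0.042, adjusted p = 0.000476), and 0.13 with arrays centred on their medians (adjusted p = 0.0190).

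**Figure D1:**
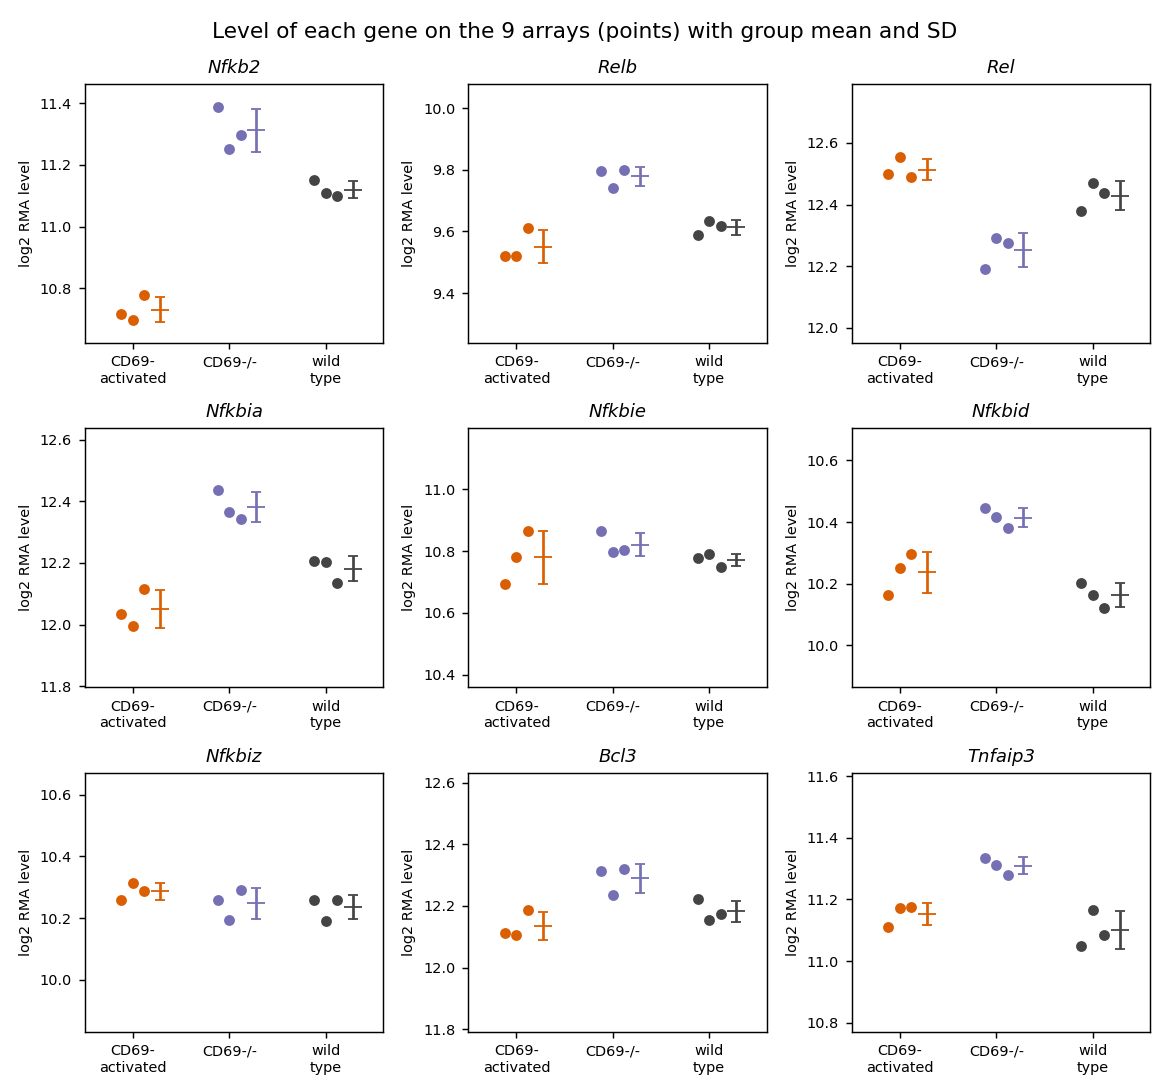
Log2 RMA level of the 9 genes, one panel per gene, with 1 point per array and the group mean and SD (n = 3) beside the points; every panel spans the same number of log2 units. Nfkb2 is lowest in CD69-activated cells (10.70 to 10.78) and highest in CD69-/- cells (11.25 to 11.39), Rel shows the opposite order, and Nfkbiz overlaps in all groups.

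Nfkbia encodes IkB-alpha, the inhibitor that NF-kappaB itself restores after a stimulus. Its levels were 12.035, 11.996 and 12.117 in CD69-activated cells, 12.44, 12.36 and 12.34 in CD69-/- cells, and 12.21, 12.20 and 12.13 in wild-type cells. The 3 groups did not overlap, in the same order as Nfkb2. Nfkbia rose 1.15-fold in CD69-/- cells against wild type (0.20, SE 0.044, adjusted p = 0.00951). Between CD69-activated and wild-type cells the difference of -0.13 did not pass (adjusted p = 0.0507), and it passed in several other settings, among them without the dimmest 25% of genes (0.0397), with an intensity trend (0.0143) and without CD69-activated replicate 3 (0.0233). CD69-activated minus CD69-/- cells gave -0.33 (adjusted p = 0.000123).

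Nfkbie encodes IkB-epsilon, a second inhibitor of the same kind. It had 10.69, 10.78 and 10.86 in CD69-activated cells, 10.86, 10.80 and 10.80 in CD69-/- cells, and 10.78, 10.79 and 10.75 in wild-type cells. The CD69-activated arrays spread over the range of both other groups. None of the 3 differences passed, with intervals of -0.051 to 0.15 for CD69-/- minus wild type, -0.093 to 0.11 for CD69-activated minus wild type and -0.14 to 0.059 for CD69-activated minus CD69-/-. With arrays centred on their medians the last of these was called, at -0.17 (adjusted p = 0.0190).

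Nfkbid encodes the nuclear protein IkB-NS, which takes part in cytokine expression and regulatory T cell development in mice. It had 10.16, 10.25 and 10.30 in CD69-activated cells, 10.45, 10.42 and 10.38 in CD69-/- cells, and 10.20, 10.16 and 10.12 in wild-type cells. All CD69-/- arrays were higher than all others. Of the 9 genes Nfkbid had the largest rise in CD69-/- cells, 1.19-fold (0.25, SE 0.043, adjusted p = 0.00195). It was lower in CD69-activated than in CD69-/- cells (-0.18, adjusted p = 0.00647), at -0.098 after cyclic loess (adjusted p = 0.0451) and -0.30 with arrays centred on their medians. Against wild type the CD69-activated difference of 0.074 did not pass (adjusted p = 0.246), was called after cyclic loess (0.11, adjusted p = 0.0335) and was at -0.0069 with arrays centred on their medians.

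Nfkbiz encodes IkB-zeta, a nuclear co-activator of secondary response genes. Its levels ran from 10.26 to 10.31 in CD69-activated cells, from 10.19 to 10.29 in CD69-/- cells and from 10.19 to 10.26 in wild-type cells. The groups overlapped, and the differences of 0.013 for CD69-/- minus wild type (95% interval -0.074 to 0.10), 0.052 for CD69-activated minus wild type (-0.035 to 0.14) and 0.039 for CD69-activated minus CD69-/- (-0.048 to 0.13) did not pass. After cyclic loess the last difference was called, at 0.12 (adjusted p = 0.0316).

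Bcl3 encodes a nuclear IkB-like protein that binds homodimers of the Nfkb1 or Nfkb2 products. It had 12.11, 12.10 and 12.19 in CD69-activated cells, 12.31, 12.23 and 12.32 in CD69-/- cells, and 12.22, 12.15 and 12.17 in wild-type cells. The CD69-/- arrays lay above the others by a small margin. The difference CD69-/- minus wild type was 0.11 and did not pass (adjusted p = 0.112), though it did with an intensity trend (adjusted p = 0.0356). CD69-activated minus CD69-/- cells gave -0.15 (SE 0.040, adjusted p = 0.00996), a call that was lost after cyclic loess (-0.10, adjusted p = 0.0519).

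Tnfaip3, the gene of A20, which takes ubiquitin chains off signalling proteins upstream of IKK, had 11.11, 11.17 and 11.18 in CD69-activated cells, 11.33, 11.31 and 11.28 in CD69-/- cells, and 11.05, 11.17 and 11.09 in wild-type cells. The CD69-/- arrays stood apart from the other 6, which overlapped. Tnfaip3 rose 1.16-fold in CD69-/- cells (0.21, SE 0.041, adjusted p = 0.00480) and was at 0.053 in CD69-activated cells against wild type (95% interval -0.037 to 0.14, adjusted p = 0.392). CD69-activated minus CD69-/- cells gave -0.16 (adjusted p = 0.0101), and after cyclic loess this was -0.085 and no longer called (adjusted p = 0.0912).

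In the CD69-/- cells, which also differ from wild type in sex, most of these genes were slightly higher and Rel was slightly lower. Of the 9 genes, 5 rose in CD69-/- cells against wild type (Nfkb2, Relb, Nfkbia, Nfkbid and Tnfaip3), 1 fell (Rel) and 3 did not pass (Nfkbie, Nfkbiz and Bcl3). Of all genes, 8.36% were called higher and 6.78% lower. The median of the 9 was 0.17, beside -0.0091 for all genes, and the called changes were between 1.12-fold (Relb) and 1.19-fold (Nfkbid). With arrays centred on their medians, which changed the calls over all genes from 1667 higher and 1351 lower to 2462 higher and 886 lower, the 9 genes again gave 5 higher and 1 lower.

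After ligation of CD69, Nfkb2 was the only member of the 9 called against wild type. It fell, 0 of the 9 genes rose and 8 did not pass. At an unadjusted p under 0.05 limma gave 0 higher and 2 lower, and the share of all genes at that threshold was not counted. Over all genes 10.1% were called higher and 13.7% lower after adjustment. These small counts are not read as a result about the 9 genes. The median of the 9 genes was 0.0077, beside 0.017 for all genes. With arrays centred on their medians the calls over all genes were 764 higher and 4741 lower, in place of 2015 and 2727, and the 9 genes gave 0 higher and 3 lower (Nfkb2, Nfkbia and Relb). Both comparisons with wild type use the same 3 wild-type arrays.

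Set directly against CD69-/- cells, CD69-activated cells had less RNA of 6 of the 9 genes (Nfkb2, Nfkbia, Relb, Nfkbid, Tnfaip3 and Bcl3) and more of Rel, while Nfkbie and Nfkbiz did not pass. Of all genes, 21.6% were called higher and 21% lower. The median of the 9 genes was -0.16, beside 0.035 for all genes. Centring the arrays on their medians moved the median of all genes in this comparison to -0.092 and that of the 9 genes to -0.28. With that centring 1354 genes were called higher and 7990 lower, in place of 4314 and 4187, and the 9 genes gave 1 higher and 7 lower. The same centring gave -0.35 for Relb (-0.23 without it, and -0.15 after cyclic loess), -0.28 for Bcl3 and -0.28 for Tnfaip3. After cyclic loess the 9 genes gave 2 higher (Rel and Nfkbiz) and 4 lower, without Bcl3 and Tnfaip3.

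**Figure D2:**
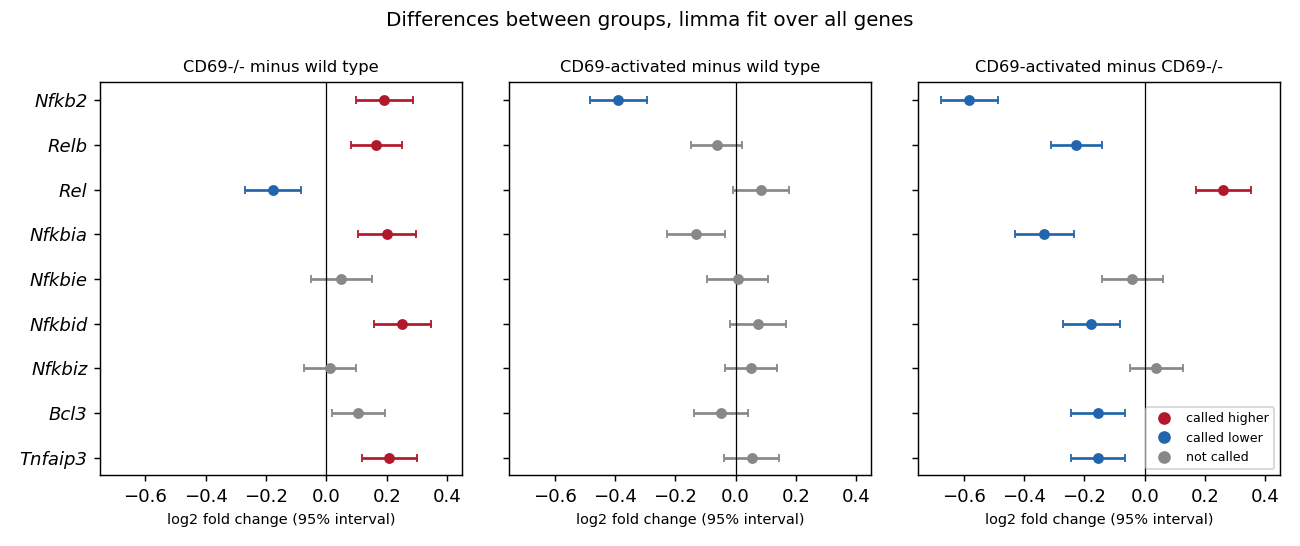
Log2 fold change (x axis) with its 95% interval for the 9 genes (y axis) in 3 comparisons from one limma fit; red is called higher, blue called lower and grey not called. The changes against wild type are under 0.40 in size, and Nfkb2 at -0.58 is the farthest from 0 in the direct comparison of CD69-activated with CD69-/- cells.

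Markers of cell types also differed in the CD69-/- arrays, where genotype and sex cannot be told apart. Of all genes, 8.36% were called higher and 6.78% lower against wild type there. The list named CD4 T cell markers holds Cd4 and genes that T cells share, such as Cd3e and Thy1. It does not tell CD4 from CD8 T cells. In CD69-/- cells against wild type all 10 measured CD4 T cell markers rose (median 0.42, range 0.32 to 0.62), both CD8 markers rose, all 14 B cell markers fell (median -0.51, range -0.97 to -0.26), and 9 of 13 monocyte, macrophage and dendritic cell markers fell and none rose (median -0.39). The mean level of the CD4 T cell markers was 11.52 to 11.53 in CD69-activated arrays, 12.04 to 12.07 in CD69-/- arrays and 11.56 to 11.63 in wild-type arrays. For the B cell markers it was 11.95 to 12.02 in CD69-activated arrays, 11.43 to 11.53 in CD69-/- arrays and 11.99 to 12.04 in wild-type arrays. The part of these shifts in the differences of the NF-kappaB genes was not tested. Between CD69-activated and wild-type cells, where Nfkb2 fell by 0.39, 3 of the 10 CD4 T cell markers fell (Thy1 by 0.37, Zap70 by 0.22 and Cd3e by 0.13) and none rose (median -0.036). Of the 14 B cell markers 2 rose (Cd72 by 0.21 and Cr2 by 0.17) and 2 fell (Fcer2a by 0.41 and Ms4a1 by 0.16), with a median of -0.019. In that comparison both CD8 markers fell (median -0.39), 5 of 7 NK cell markers fell and none rose (median -0.35), and of the 13 myeloid markers 5 rose and 3 fell (median 0.11). Of all genes, 10.1% were called higher and 13.7% lower there. The part of these markers in the fall of Nfkb2 was not tested. In CD69-activated against CD69-/- cells all 10 CD4 T cell markers (median -0.50) and both CD8 markers (-0.92) were lower. All 14 B cell markers were higher (0.53), and of the 13 myeloid markers 10 were higher and 2 lower (0.57). Of all genes, 21.6% were called higher and 21% lower there. The part of these shifts in the differences of the 9 genes was not tested.

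**Figure D3:**
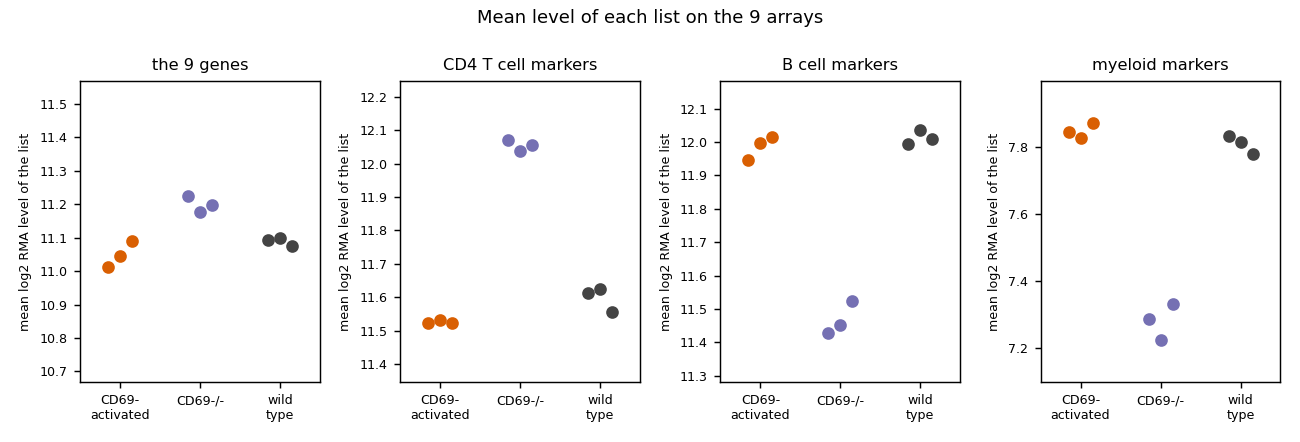
Mean log2 RMA level of the 9 genes and of 3 marker lists on each array (points), by group; every panel spans the same range of log2 units. The list of CD4 T cell markers holds Cd4 and genes that T cells share. CD4 T cell markers are high (12.04 to 12.07) and B cell markers low (11.43 to 11.53) in the CD69-/- arrays. The mean of the 9 genes is 11.18 to 11.23 in CD69-/- arrays, 11.01 to 11.09 in CD69-activated arrays and 11.08 to 11.10 in wild-type arrays.

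Of 4 further genes listed with the subunits and inhibitors (Rela, Nfkbib, Nfkbil1 and Ankrd42), 1 rose in CD69-/- cells against wild type, beside 8.36% of all genes. In CD69-activated cells 1 fell against wild type (13.7% of all genes) and 2 were lower than in CD69-/- cells (21%). These small counts are not read as a result about the list. Nfkbil1 and Ankrd42 passed in none of the 3 comparisons. Ankrd42 averaged 6.34 in CD69-activated, 6.27 in CD69-/- and 6.37 in wild-type arrays, under the median level of all genes, 7.70. Rela, which encodes the p65 subunit, had 11.57, 11.51 and 11.62 in CD69-activated cells, 11.82, 11.86 and 11.88 in CD69-/- cells, and 11.71, 11.68 and 11.62 in wild-type cells. It rose in CD69-/- cells (0.18, adjusted p = 0.0119) and was lower in CD69-activated than in CD69-/- cells (-0.29, adjusted p = 0.000225). Nfkbib, the gene of IkB-beta, was low in CD69-activated cells at 11.92, 12.02 and 12.09, against 12.33, 12.31 and 12.31 in CD69-/- cells and 12.29, 12.22 and 12.20 in wild-type cells. It fell by 0.23 against wild type (adjusted p = 0.00423) and by 0.31 against CD69-/- (adjusted p = 0.000310).

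Upstream, 12 genes between the T cell receptor and IKK were measured. In CD69-/- cells against wild type 2 of the 12 rose and none fell, beside 8.36% of all genes called higher and 6.78% lower, with Prkcq, the gene of protein kinase C theta, at 0.39 and Tab1, an adaptor of the kinase TAK1, at 0.15. In CD69-activated cells against wild type Ikbkb, which encodes a catalytic IKK subunit, rose by 0.14 (adjusted p = 0.0238), the protease gene Casp8 fell by 0.16 (adjusted p = 0.0105), and the other 10 did not pass. Of all genes, 10.1% were called higher and 13.7% lower there, and these small counts are not read as a result about the list. Prkcq levels were 11.77, 11.83 and 11.77 in CD69-activated cells, 12.11, 12.07 and 12.09 in CD69-/- cells, and 11.71, 11.71 and 11.66 in wild-type cells, so the CD69-/- arrays stood apart. The CD4 T cell markers also rose in CD69-/- cells against wild type (median 0.42), and their part in the rise of Prkcq was not tested.

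Receptors and regulators of the non-canonical route differed more. The costimulatory receptor gene Tnfrsf9, encoding 4-1BB, was at 10.73, 10.98 and 10.90 in CD69-activated cells, 12.08, 12.002 and 12.12 in CD69-/- cells, and 11.82, 11.82 and 11.81 in wild-type cells. It fell by 0.95 in CD69-activated cells against wild type (SE 0.059, adjusted p = 1.51e-06). Tnfrsf4, encoding OX40, fell by 0.27 in CD69-activated cells and rose by 0.52 in CD69-/- cells, both against wild type. The list had 4 of 12 lower and none higher in CD69-activated cells against wild type, with Cd40 at -0.46 and the ubiquitin ligase gene Birc3 at -0.18. Of all genes, 10.1% were called higher and 13.7% lower there. In CD69-/- cells against wild type 4 rose and 5 fell, beside 8.36% of all genes called higher and 6.78% lower. The falls included Tnfrsf13c, the BAFF receptor gene of B cells (-0.43), Traf5 (-0.33) and Cd40 (-0.30). B cell markers fell (median -0.51) and CD4 T cell markers rose (median 0.42) in the same comparison. In CD69-activated cells against wild type, where Cd40 was at -0.46, the median of the B cell markers was -0.019. The part of these markers in the differences of this list was not tested.

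Regulators of the route other than Tnfaip3 were followed as a list of 19 genes, among them deubiquitinase, ubiquitin and RNA decay genes. The list was not confined to brakes on the route. Against wild type 4 rose and none fell in CD69-/- cells, beside 8.36% of all genes called higher, namely Traf1 (0.30), Tnip1, whose product binds A20 (0.30), Zc3h12d (0.29) and Cyld (0.14). In CD69-activated cells Traf1 (0.17) and Zc3h12a, the gene of the RNA-cleaving protein Regnase-1 (0.16), rose and Tnip3 fell by 0.80 (SE 0.12, adjusted p = 0.000607), beside 10.1% of all genes called higher and 13.7% lower. CD69-activated minus CD69-/- cells gave 1 higher and 7 lower of the 19, where 21.6% of all genes were called higher and 21% lower, with Tnip3 at -1.07 and Tnip1 at -0.36. Tnip3 averaged 6.67 in CD69-activated, 7.74 in CD69-/- and 7.48 in wild-type arrays, near or under the median level of all genes, 7.70. Its SDs in these groups were 0.21, 0.16 and 0.18.

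Known NF-kappaB target genes spread widely. Of 38 measured targets, 3 rose and 20 fell in CD69-activated cells against wild type (median -0.19), and 18 rose and 12 fell in CD69-/- cells against wild type (median 0.11). Of all genes, 10.1% were called higher and 13.7% lower in the first of these comparisons (median 0.017). In the second, 8.36% were called higher and 6.78% lower (median -0.0091). The chemokine gene Ccl22 was at 8.897, 8.867 and 8.996 in CD69-activated cells, 9.64, 9.64 and 9.69 in CD69-/- cells, and 10.39, 10.42 and 10.24 in wild-type cells, lower in both groups than in wild type. Cxcl2, a neutrophil chemokine gene, had 8.95, 9.15 and 8.99 in CD69-activated cells, 6.76, 6.77 and 6.86 in CD69-/- cells, and 7.90, 7.90 and 7.82 in wild-type cells. Among the 3 targets that rose in CD69-activated cells were Cxcl2 (1.16) and the interleukin gene Il1a, and the falls included Ccl22 (-1.43), Ccl3 (-1.12) and Cxcl10 (-1.12). Of the 13 myeloid markers 5 rose and 3 fell in CD69-activated cells against wild type (median 0.11). In CD69-/- cells 9 of the 13 fell against wild type and none rose (median -0.39). The part of these shifts in the differences of Cxcl2 and Il1a was not tested. Against CD69-/- cells 8 targets were higher and 24 lower in CD69-activated cells (median -0.26), with Il2 at -1.64. There 21.6% of all genes were called higher and 21% lower (median 0.035). In CD69-activated against wild-type cells the 38 targets ranged from -1.43 to 1.16 and the 9 genes from -0.39 to 0.084. A range tends to widen with the number of genes, so these ranges are not set against each other. The kappaB motif was present in the promoter windows of 13 of the 32 targets with a window (40.6%), Cxcl2 and Cxcl10 among them.

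**Figure D4:**
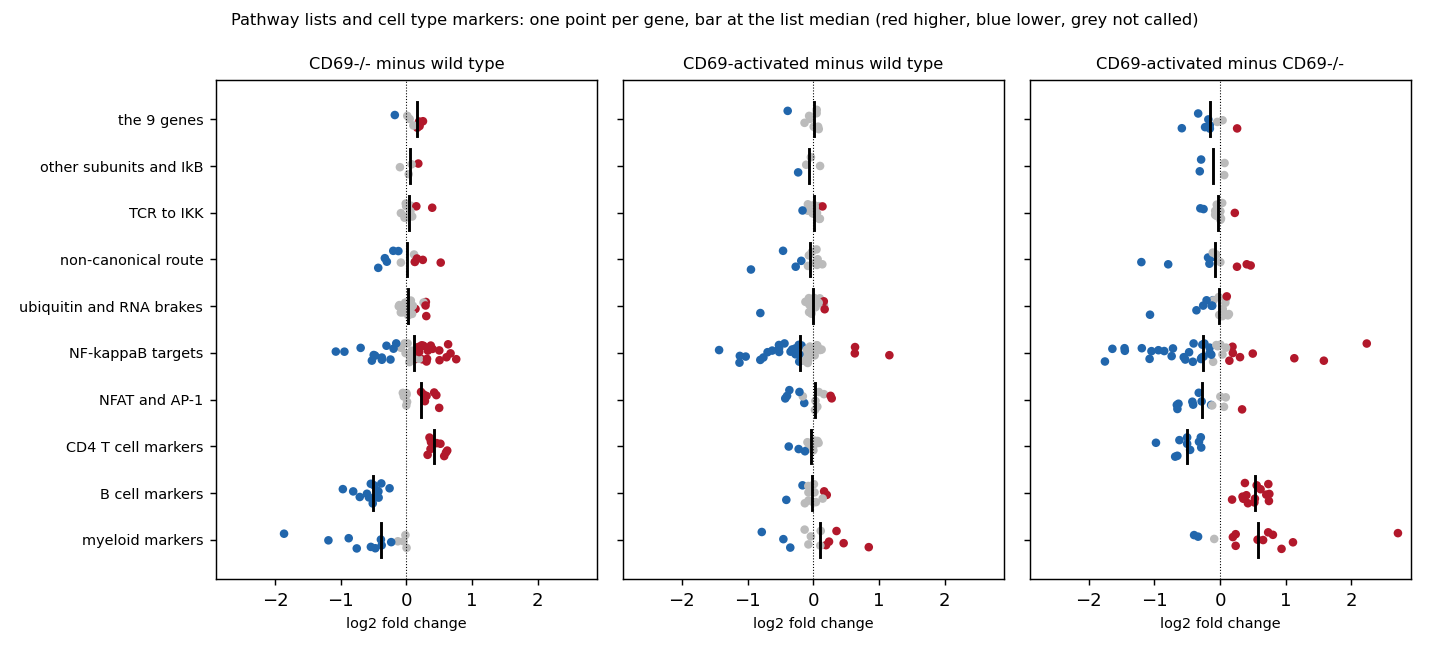
Log2 fold change (x axis) of every gene of each list (rows) in the 3 comparisons, with 1 point per gene, red for called higher, blue for called lower, grey for not called, and a bar at the list median. Row labels are short names, and the rows of ubiquitin and RNA brakes and of other subunits and IkB also hold other genes. The row of CD4 T cell markers holds Cd4 and genes that T cells share. The 9 genes lie between -0.58 and 0.26, NF-kappaB targets spread from -1.43 to 1.16 in CD69-activated minus wild type, and CD4 T cell markers (median 0.42) and B cell markers (median -0.51) part in CD69-/- minus wild type.

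Over the 9 arrays, which include the group differences, the 36 pairs of the 9 genes had Pearson correlations between -0.96 (Rel with Nfkbia) and 0.95 (Relb with Nfkbia), with a median of 0.53. The pairs share arrays and scaling, and these values are a description. Among 9532 named genes with a mean above the median, the profiles most like Nfkb2 over the 9 arrays were those of Phb2 (r = 0.998) and Myl6 (0.995), and those most like Nfkbia were Pla2g12a (0.995) and Ttll12 (0.994). Nfkbid ran closest to Gpx4 (0.995) and to Ltb (0.986), the lymphotoxin-beta gene, and Relb to Podnl1 (0.993) and Zfp512b (0.986). The profile of Rel was most like Zfp870 (0.983) and Slc28a2 (0.982), that of Tnfaip3 most like Plec (0.985) and Fam120a (0.983), and that of Bcl3 most like Tubgcp3 (0.981) and Zfp53 (0.978). Nfkbie (Chpf2 at 0.960 and Lmtk2 at 0.957) and Nfkbiz (Lrrc1 at 0.922 and Fbxo30 at 0.879) had weaker partners.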

How the data were processed

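The 9 arrays were 1-colour Affymetrix gene arrays, 3 per group. Per the submitters' processing notes, the deposited log2 values come from RMA as run by the authors in oligo under R 2.12.1. Its settings were not given in the sources used here. RMA compresses large fold changes, and the values carry no detection call. Of 35556 probe sets, 21789 had 1 symbol in the platform annotation, 1621 several and 12146 none, and 21698 of the first matched RefSeq by gene ID. The probe set of highest mean represented each of 19938 genes. Group means were fitted with limma 3.58.1 (R 4.3.3, lmFit and eBayes, no trend, all 9 arrays, 6 residual and 4.78 prior degrees of freedom), two-sided. The fit was tested on simulated data. Named genes were the listed members, Cd69, Xist, Uty, up to 4 called genes of each other list with the largest change in a comparison and, for each member, the 2 genes of highest correlation. Cd4 and Cd79a are named from outside this rule. The members and lists were chosen with earlier results of these data known. Alternatives were median centring, cyclic loess, dropping the dimmest 25% of genes, averaging or testing all probe sets, fitting the compared arrays alone, an intensity trend with robust prior, a replicate block, dropping each array in turn, and dropping genes of the X and Y chromosomes. Promoters came from RefSeq (GRCm38.p6). Figures were drawn with matplotlib 3.10.9.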

Additional observations from a re-analysis of the deposited data

How the results depend on the processing

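The calls of Nfkb2 in all 3 comparisons, of Nfkbia, Nfkbid and Tnfaip3 in CD69-/- minus wild type, and of Rel, Relb, Nfkbia and Nfkbid in CD69-activated minus CD69-/- held in every alternative run. In CD69-activated minus wild type the number of the 9 genes called lower was 1, and it was 3 with arrays centred on their medians and 2 without the dimmest genes, with the mean of a gene's probe sets or with an intensity trend; the number called higher was 0, and 1 after cyclic loess. Leaving out single arrays gave 1 to 2 lower and 0 higher there, 4 to 5 higher and 0 to 1 lower in CD69-/- minus wild type, and 1 higher and 6 lower in CD69-activated minus CD69-/-. In this last comparison 2 were called higher and 4 lower after cyclic loess. The median of the 9 genes in CD69-activated minus wild type, 0.0077, turned to -0.074 with arrays centred on their medians and lay between -0.035 and 0.051 with single arrays left out. The cause of these shifts was not tested. Samples that share a replicate number did not deviate together (correlations from -0.24 to 0.14), not every sample correlated best with its own number, and with a replicate block the counts were unchanged at 5 higher and 1 lower, 0 and 1, and 1 and 6. Only 3 arrays per group limit the precision. In the main fit Bcl3 at 0.11 in CD69-/- minus wild type did not pass. Nfkbia at -0.13 in CD69-activated minus wild type did not pass either, and Bcl3 at -0.15 in CD69-activated minus CD69-/- did.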

Other observations

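Genes of the other transcription factors that act downstream of the T cell receptor, NFAT and AP-1, were also measured. Of 13, 7 rose and none fell in CD69-/- cells against wild type (median 0.22), beside 8.36% of all genes called higher, with the AP-1 genes Fosl2 (0.50) and Batf (0.42) and the NFAT gene Nfatc2 (0.46) leading. All 10 CD4 T cell markers rose in the same comparison (median 0.42), and their part in these differences was not tested. Fosl2 had 8.946, 8.998 and 9.091 in CD69-activated cells, 9.72, 9.56 and 9.74 in CD69-/- cells, and 9.19, 9.18 and 9.14 in wild-type cells. In CD69-activated cells against wild type 2 rose and 5 fell (median 0.027), beside 10.1% of all genes called higher and 13.7% lower, with Fosl1 at -0.43, Atf3 at -0.40 and Jun at -0.36 lower and Nfat5 at 0.28 higher. CD69-activated minus CD69-/- cells gave 1 higher and 8 lower (median -0.28), where 21.6% of all genes were called higher and 21% lower.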
